A study of Mus musculus with 31 samples.

Results

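The genes of the proteasome were examined in the accessible chromatin of NIH-3T3 cells. Members were the protein-coding genes whose symbol is Psma, Psmb, Psmc, Psmd, Psme, Psmf or Psmg followed by a number, in the GENCODE annotation of the mm10 genome. This rule gave 48 of 21938 protein-coding genes on the autosomes and the sex chromosomes. Of these, 43 encode constitutive subunits, regulators or assembly factors, 3 encode the immunoproteasome subunits Psmb8, Psmb9 and Psmb10, and 2 encode the thymic subunit Psmb11 and the testis subunit Psma8. The data were the peaks of a single ATAC-seq library, made from the parental line of NIH-3T3, a mouse fibroblast line. This line carries no TF transgene and, by the sample labels, was given no doxycycline. The study's ATAC-seq methods describe doxycycline treatment of NIH-3T3 cells without naming an exception, and the labels were followed here. In the study, peaks of this kind marked open chromatin for the comparison with TF binding sites. The library came from 50000 cells exposed to 0.5 µM of the transposase Tn5 for 30 min. By the labels it was amplified over 12 cycles of PCR, whereas the study's methods describe additional cycles set by qPCR. The other 30 samples, with 13 TFs in 2 replicates each and rtTA3G alone in 4, were not analysed here, which left neither a second group nor a replicate to test against.

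The proteasome degrades proteins that carry ubiquitin chains. Its barrel-shaped 20S core particle has outer rings of alpha subunits, which gate the entry, and inner rings of beta subunits, of which Psmb5, Psmb6 and Psmb7 carry the active sites. The 19S regulatory particle binds, unfolds and deubiquitinates substrates with a ring of ATPases and a set of non-ATPase subunits, and other activators can cap the core in its place. Interferon-γ induces Psmb8, Psmb9 and Psmb10, which take the places of Psmb5, Psmb6 and Psmb7 and alter which peptides are made for antigen presentation. Psmb11 takes the place of Psmb5 in cortical epithelial cells of the thymus, and Psma8 that of Psma7 in male germ cells. Transcription of the constitutive genes is known to be raised together by the TF NFE2L1 through antioxidant response elements (ARE) when proteasome activity falls short.

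The promoters of the catalytic subunits are shown because these are the genes that replace each other. Each line gives the mm10 position and strand and the bases from 100 to 1 before the representative TSS. This is the start of the best-ranked principal transcript in the annotation, and the most upstream one where several ranked equally. Capitals mark matches to the letters TGACNNNGC of the ARE in Psmb5 and Psmb6 and to the CCAAT letters bound by NF-Y, read on the other strand, in Psmb7. The sequence of Psmb10 holds no match to any motif searched, and the peak of Psmb10 lay not there but 1028 bp inside the gene.
Psmb5 (chr14:54618023-54618122, minus strand): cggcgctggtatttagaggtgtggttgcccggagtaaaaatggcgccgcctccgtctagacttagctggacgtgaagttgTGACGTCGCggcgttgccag
Psmb6 (chr11:70525286-70525385, plus strand): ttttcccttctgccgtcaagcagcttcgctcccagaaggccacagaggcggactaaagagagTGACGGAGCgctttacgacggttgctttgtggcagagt
Psmb7 (chr2:38644088-38644187, minus strand): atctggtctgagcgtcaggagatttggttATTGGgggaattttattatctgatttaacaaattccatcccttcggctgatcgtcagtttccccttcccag
Psmb10 (chr8:105938445-105938544, minus strand): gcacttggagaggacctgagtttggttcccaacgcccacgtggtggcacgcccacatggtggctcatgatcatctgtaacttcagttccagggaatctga

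In Psmb8, which had no peak at its TSSs, capitals mark a cyclic AMP response element (CRE), TGACGTCA, and an interferon-γ activated site (GAS), TTCNNNGAA, in the bases from 150 to 56 before the TSS. The last sequence lies 60 bases to either side of the peak summit inside Psmb10, where capitals mark a match to the ARE on the other strand.
Psmb8 (chr17:34197640-34197734, plus strand): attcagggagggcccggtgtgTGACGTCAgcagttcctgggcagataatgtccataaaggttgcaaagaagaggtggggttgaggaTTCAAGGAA
Psmb10 (chr8:105937040-105937160, minus strand): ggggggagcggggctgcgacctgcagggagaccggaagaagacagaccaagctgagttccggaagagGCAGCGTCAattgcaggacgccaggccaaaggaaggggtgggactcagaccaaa

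The following matches to the interferon-stimulated response element (ISRE), GAAA followed after any 2 bases by GAAA on either strand, are shown because they lay in constitutive genes. Each has 10 bases to either side in lower case.
Psma4 (chr9:54950576-54950605, plus strand): gtacagaagaGAAAACGAAAgtggagtgca
Psmb3 (chr11:97703261-97703290, plus strand): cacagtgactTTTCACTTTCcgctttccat
Psmd4 (chr3:95042675-95042704, minus strand): ataaccaaccTTTCCATTTCtgtggcgcct
Psmd7 (chr8:107588529-107588558, minus strand): aaggcggttcTTTCCCTTTCtcaagatggc
Psmd9 (chr5:123228021-123228050, plus strand): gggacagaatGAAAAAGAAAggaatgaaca
Psmg4 (chr13:34162969-34162998, plus strand): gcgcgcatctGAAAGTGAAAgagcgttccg

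The 7 matches to the ARE in the same windows are shown because NFE2L1 acts through these letters.
Psmb2 (chr4:126677619-126677647, plus strand): gccgcgccagTGACTGGGCcgtcgcgcgt
Psmb5 (chr14:54618024-54618052, minus strand): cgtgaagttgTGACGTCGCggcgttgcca
Psmb6 (chr11:70525338-70525366, plus strand): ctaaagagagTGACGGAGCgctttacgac
Psmc6 (chr14:45329587-45329615, plus strand): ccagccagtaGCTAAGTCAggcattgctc
Psmd12 (chr11:107479271-107479299, plus strand): gagatgttctGCTGTGTCAcatttgcccc
Psmd7 (chr8:107588572-107588600, minus strand): tcaatgccaaGCTTCGTCAatagcctaag
Psmd9 (chr5:123228149-123228177, plus strand): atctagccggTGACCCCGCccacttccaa

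Each gene was given the peaks no farther than 1 kb from the start of one of its annotated transcripts. Of the 48 genes, 45 had such a peak (93.8%, Wilson 95% interval 83.2 to 97.9%), beside 53.7% of all protein-coding genes. All 43 genes counted as constitutive, which include the interferon-inducible activator genes Psme1 and Psme2, had one. So did Psmb9 and Psmb10, whereas Psmb8, Psmb11 and Psma8 had none. In all 45 genes the peak covered at least 1 annotated TSS, so that none of them depended on the distance of 1 kb. The nearest gene outside that distance was Psmb11, with a peak 1881 bp away. The 45 genes held 53 of the 63456 peaks of the library and lay, with the 3 others, on 16 chromosomes.

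Peak height is given as the fold enrichment, the ratio of the fragments over the summit to those the peak caller expected there, each with 1 added. The strongest TSS peak of the 45 genes had a median fold enrichment of 10.38 (95% interval of the median 9.525 to 11.59, range 6.583 to 16.79), with quartiles of 8.908 and 12.21. The other 11743 protein-coding genes with a TSS peak had a median of 9.851 and quartiles of 7.259 and 12.4. Proteasome genes were thus spread over a narrower range around nearly the same centre: 28 of 45 lay above the median of the others, 11 above their upper quartile and 2 below their lower quartile. The 2 genes below were Psmb6 and Psmb3. The 45 summits lay under 31 to 109 fragments, with a median of 60 beside 64 in the other genes, and their −log10 q had a median of 40.56 beside 41.93. The ratio of the medians was therefore 1.05 by fold enrichment but below 1 by fragments and by −log10 q. With 1 library no replicate error was available. The intervals given below for single peaks are exact Poisson intervals of the fragments at the summit and cover counting error only.

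**Figure D1:**
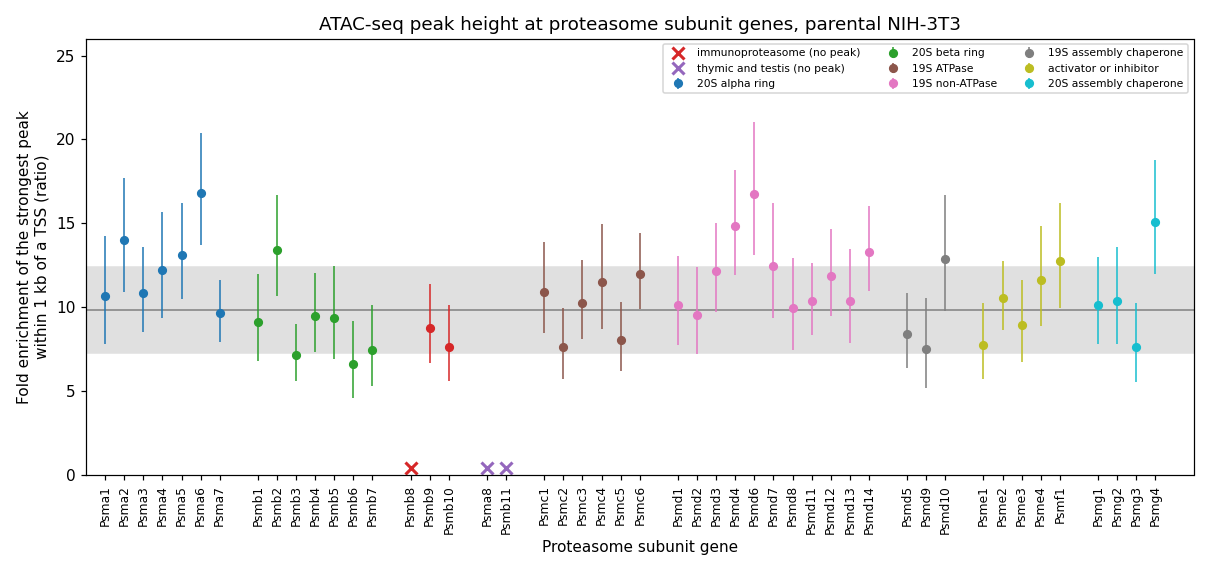
Fold enrichment (ratio) of the strongest ATAC-seq peak within 1 kb of a TSS for each proteasome gene, grouped and coloured by role, with bars for 95% Poisson counting intervals, the grey line and band for the median and quartiles of other coding genes with a peak, and crosses for genes without a peak. Psma6 was highest at 16.79 and Psmb6 lowest at 6.583, and the crosses mark Psmb8, Psma8 and Psmb11.

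**Figure D2:**
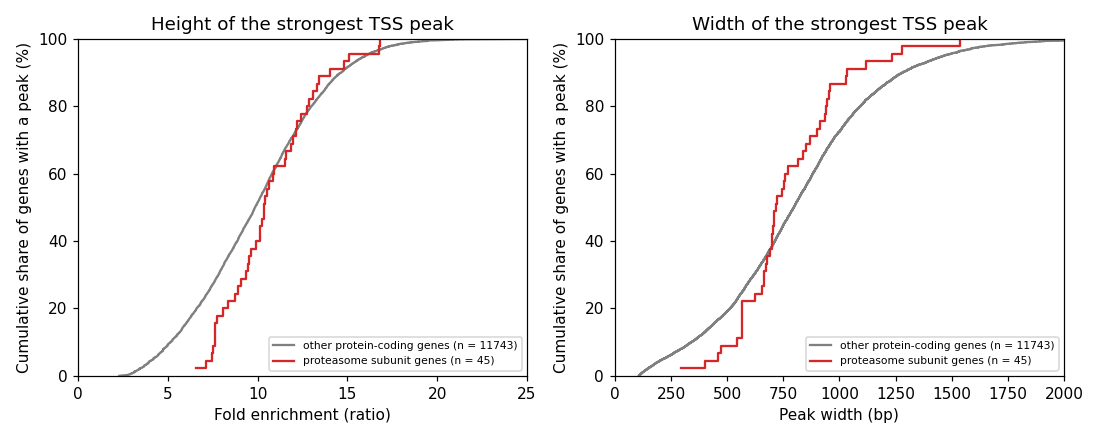
Cumulative share (%) of genes with a TSS peak against the fold enrichment (left, ratio) and width (right, bp) of the strongest such peak, for 45 proteasome genes (red) and 11743 other protein-coding genes (grey). The red curve started at 6.583 on the left and crossed 50% at 717 bp on the right, where the grey curve crossed at 797 bp.

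Genes of the alpha ring, which gates the core, had the highest median of the core subunits. All 7 had a peak, at 9.62 to 16.79 with a median of 12.21. Psma6 had the highest fold enrichment of all members, 16.79 (95% counting interval 13.68 to 20.4) under 99 fragments at chr12:55398296-55399238, with its summit in a UTR exon next to a TSS. Psma2 followed at 14.01 (10.92 to 17.7), with 68 fragments, in a peak with its summit between its TSS and that of Mrpl32, a mitochondrial ribosomal protein gene on the other strand. Psma5 had 13.1, Psma4 12.21 and Psma3 10.85. Psma1 had 10.66 under 44 fragments and a weaker second peak of 3.955 under 16 fragments, 505 bp upstream of its TSSs. Psma7, the subunit that Psma8 replaces in the testis, had the lowest value of the ring, 9.62 (7.884 to 11.63), but the widest peak of all members. It covered 1535 bp at chr2:180041918-180043452 and held 105 fragments at the summit, where 10.02 were expected. This peak also covered the start of Ss18l1, 76 bp away on the other strand.

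In the beta ring, which holds the proteolytic sites, all 7 constitutive genes had a peak, at 6.583 to 13.4 with a median of 9.095. Apart from Psmb2 at 13.4 (10.63 to 16.69), the other 6 lay below the lowest gene of the alpha ring. The median width was 626 bp in the beta ring beside 913 bp in the alpha ring, and the median summit held 49 fragments beside 73. No test of this difference was made, since the genes are not replicates. Among the strongest peaks of each member, that of Psmb6, the caspase-like subunit, was the lowest and narrowest. It had 6.583 (4.592 to 9.167) over 296 bp (chr11:70525141-70525436), with 33 fragments at a summit at −102 bp from the nearest TSS. Psmb7, the trypsin-like subunit, had 7.434 (5.316 to 10.13) under 38 fragments at chr2:38643567-38644192, with its summit in a coding exon 208 bp downstream of the representative TSS. Psmb5, the chymotrypsin-like subunit and the main target of proteasome inhibitors, had 9.362 (6.908 to 12.42) under 46 fragments at chr14:54617774-54618338, with its summit at −68 bp from the TSS. The counting intervals of these 3 genes overlapped.

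The non-catalytic beta genes ran from 7.127 at Psmb3 to 13.4 at Psmb2, whose counting intervals did not overlap. Psmb4 had 9.465 under 64 fragments. Psmb3 had 7.127 (5.558 to 9.008) under 68 fragments, as many as Psma2, but 8.681 fragments were expected at its summit and 3.926 at that of Psma2. A second peak of Psmb3, 687 bp upstream, reached 2.656 under 25 fragments. Psmb1 had 2 peaks of like height. That at its own representative TSS had 8.139 (5.963 to 10.86) under 44 fragments, and the stronger, 9.095 (6.776 to 11.97) under 49 fragments at chr17:15499509-15500172, lay 1211 bp upstream at an alternative start of Psmb1 and at the TSS of Tbp, the TATA-binding protein gene.

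The immunoproteasome genes differed from each other. Psmb9, which replaces Psmb6, had a peak of 8.764 (6.641 to 11.36) under 55 fragments over 934 bp at chr17:34187289-34188222. Its summit lay in a UTR exon of Psmb9, and the peak also covered the start of Tap1, a subunit of the transporter that carries peptides into the endoplasmic reticulum. The representative TSSs of both genes are 211 bp apart, so that the signal of one cannot be told apart from that of the other. Of the 7 annotated TSSs of Psmb9, 4 lay in the peak. Psmb10, which replaces Psmb7, had 7.603 (5.59 to 10.12) under 45 fragments over 543 bp. This peak lay not at the representative TSS but 1028 bp inside the gene, with its summit in an intron, at chr8:105936874-105937416, where 3 of its 7 annotated TSSs begin. The counting intervals of Psmb9 and Psmb6 overlapped, as did those of Psmb10 and Psmb7.

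Psmb8, which replaces Psmb5, had no peak within 1 kb of any of its 6 annotated TSSs. The nearest, 5062 bp away at chr17:34204416-34204594, was a small peak of 4.751 (3.084 to 7.03) under 23 fragments with its summit in a UTR exon of Tap2, the partner of Tap1. The TSSs of Psmb8 and Psmb9 are 10026 bp apart in the major histocompatibility locus, with a peak at the latter and none at the former. The thymic Psmb11 lies next to Psmb5, with their TSSs 7288 bp apart. Its nearest peak lay between both genes at chr14:54619174-54619552, with a fold enrichment of 5.649 (3.819 to 8.078) under 28 fragments. That peak was 1881 bp from the nearer of the 2 annotated TSSs of Psmb11 and 5758 bp from the representative one. The nearest peak to the testis gene Psma8 was 22722 bp away, at the start of Ss18, with 11.07 under 63 fragments. The weakest summit in the whole list held 10 fragments, and sites below the threshold of the peak caller are not in it, so weaker accessibility at these 3 genes was not detectable at this depth.

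**Figure D3:**
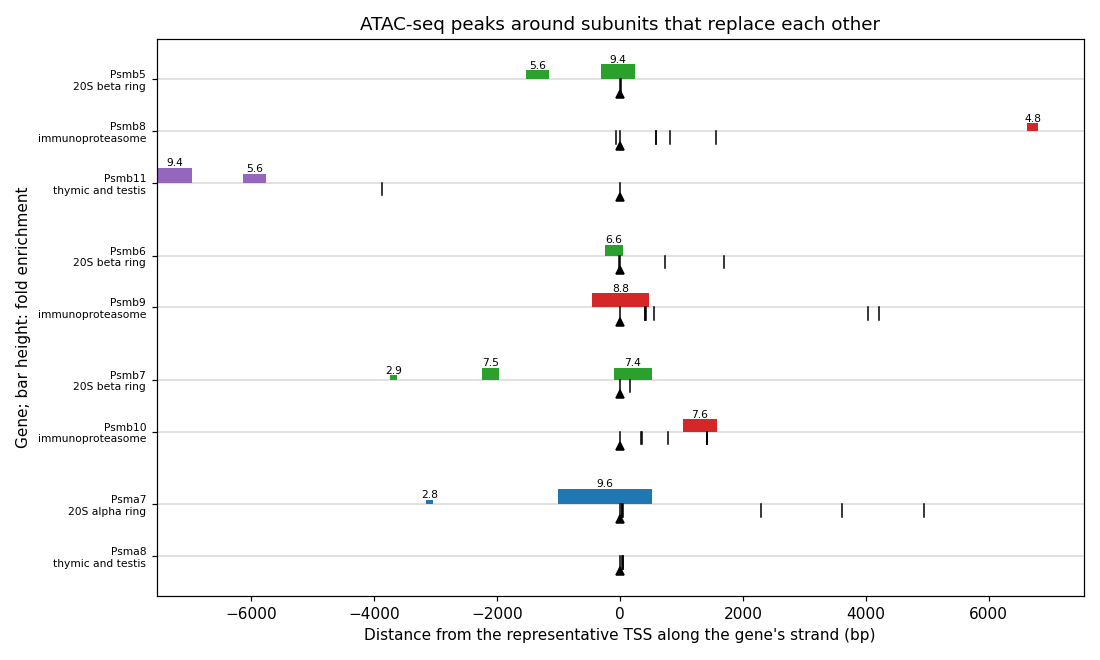
Peaks (bars, height proportional to the fold enrichment printed above each) against the distance from the representative TSS (bp, triangle at 0, positive downstream), with ticks below each line for annotated TSSs, for the subunits that replace each other. Psmb5, Psmb6, Psmb7, Psmb9 and Psma7 have a peak over the triangle, that of Psmb10 lies 1028 bp downstream, and Psmb8, Psmb11 and Psma8 have none there.

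The regulatory particle had a peak at every gene. The 6 ATPases, which unfold substrates, lay between 7.607 and 11.98 with a median of 10.57. Psmc6 was highest at 11.98 (9.86 to 14.43), under 109 fragments, followed by Psmc4 at 11.5, Psmc1 at 10.89 and Psmc3 at 10.24. The lowest were Psmc5 at 8.062 and Psmc2 at 7.607 (5.701 to 9.956). Both share their peak with a gene on the other strand, Psmc5 with Ftsj3 at 75 bp and Psmc2 with Dnajc2 at 32 bp.

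The 11 non-ATPase subunits had a median of 11.86. The lowest was Psmd2, a large scaffold of the base, at 9.525 (7.199 to 12.38). Psmd6, a lid subunit, had 16.73 (13.12 to 21.04) under 71 fragments at chr14:14120296-14121253, close to Psma6. Psmd4, a ubiquitin receptor, had 14.81 (11.93 to 18.19) under 89 fragments at chr3:95042323-95043024. Psmd14, the deubiquitinase of the lid, had 13.31 (10.95 to 16.04) under 109 fragments, as many as Psmc6, and a second peak of 5.963 under 48 fragments in its intron. Psmd11 had 10.33 under 92 fragments over 1278 bp, with a second intronic peak of 4.438 under 37 fragments, 610 bp from the nearest TSS. The other lid and base subunits were Psmd7 at 12.42, Psmd3 at 12.15, Psmd12 at 11.86, Psmd13 at 10.38, Psmd1 at 10.14 and Psmd8 at 9.912.

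Assembly factors and activators covered nearly the whole range. Of the chaperones of the base, the X-linked Psmd10, also known as gankyrin, had 12.89 (9.789 to 16.67) under 56 fragments. Psmd9 had 7.489 (5.164 to 10.53) under 31, the fewest at the strongest peak of any member. Psmd5 had a pair of peaks of nearly equal height, 8.377 under 57 fragments upstream of its nearest TSS and 8.023 under 55 in an intron 854 bp from the nearest TSS. Among the chaperones of the core, Psmg4 had 15.08 (11.96 to 18.77) under 78 fragments at chr13:34162701-34163470, and Psmg3 had 7.604 (5.53 to 10.22) under 42 over only 400 bp. Their counting intervals did not overlap. Psmg2 had 10.38 and Psmg1 10.13, the latter with a second peak of 3.439 under 20 fragments.

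Psme1 and Psme2 form the interferon-inducible activator of the core, and both had a peak. Psme1 had 7.736 (5.708 to 10.26) under 46 fragments and its summit 25 bp from the nearest TSS. Psme2 had 10.52 (8.618 to 12.73) under 104 fragments over 1235 bp. The summit of this peak lay at −603 bp from the representative TSS, and the peak also covered the start of Rnf31, 621 bp away, which encodes a ubiquitin ligase subunit. Psme3, a nuclear activator, had 8.908 (6.695 to 11.63) under 52 fragments. Psme4, an activator known from sperm and DNA repair, had 11.59 (8.886 to 14.86) under 60 fragments and a second peak of 4.58 under 23 in a coding exon. The inhibitor Psmf1 had 12.77 (9.92 to 16.2) under 66 fragments at chr2:151740845-151741565. Like that of Psmb10, this peak had its summit in an intron and covered an alternative start, 2621 bp from the representative TSS.

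The peaks of proteasome genes were somewhat narrower by their median. Their width had a median of 717 bp (95% interval of the median 678 to 838) beside 797 bp, a ratio of 0.9, and 17 of 45 were wider than the median of the others. Summits were close to transcript starts, at a median of 42 bp from the nearest TSS beside 69 bp, and 34 of 45 (75.6%) were within 100 bp beside 61.7%. The exception beyond 250 bp was Psme2, with its summit at −577 bp from the nearest TSS. In 19 genes the summit was in a UTR exon of the gene, in 3 in a coding exon, in 4 in an intron, in 1 in a noncoding exon and in 18 outside the gene. Of the 253 annotated TSSs of the 48 genes, 155 (61.3%) were inside a peak. The share was 37.2% in all other protein-coding genes, here counted with or without a peak. Of those genes 53.6% had a TSS peak, beside 93.8% of the members, so the 2 shares differ in this base too. Of the genes with a peak, 8 (17.8%) had 2 within 1 kb beside 24.2% of other genes with 2 or more.

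Proteasome promoters were mostly CpG-rich, here a ratio of observed to expected CpG of at least 0.6 and a GC content of at least 50% within 250 bp of the representative TSS. This held for 42 of 48 genes (87.5%) beside 49.7% of the others, with a median CpG ratio of 0.774 beside 0.612. Among CpG-rich genes, 40 of 42 members (95.2%) had a TSS peak beside 81.7% of other genes. The median fold enrichment of CpG-rich other genes was 10.24 beside 10.38 in the members. The 2 CpG-rich members without a peak were Psmb8, at a CpG ratio of 0.64, and Psma8, at 0.60, both near the limit. The 6 members not CpG-rich were Psmd10 (0.545), Psme1 (0.579), Psme2 (0.386), Psmf1 (0.147), Psmb10 (0.183) and Psmb11 (0.304). All of these but Psmb11 had a peak, beside 25.9% of other such genes. In Psmf1 and Psmb10, at the lowest ratios, the peak lay at another start than the one at which CpG was counted.

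**Figure D4:**
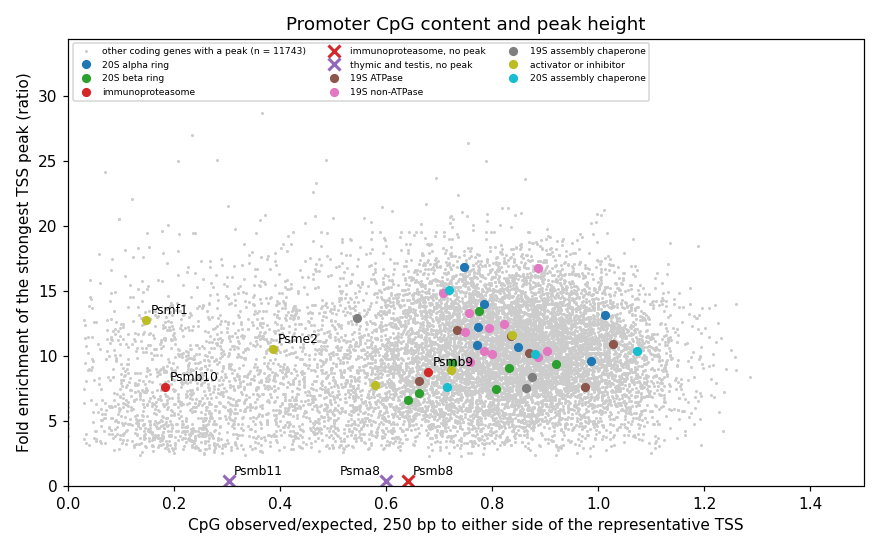
Fold enrichment (ratio) of the strongest TSS peak against the CpG observed/expected ratio around the representative TSS, for proteasome genes coloured by role and 11743 other coding genes with a peak (grey), with crosses near 0 for genes without a peak. Most proteasome genes lie above a CpG ratio of 0.6, and Psmf1, Psmb10, Psmb11 and Psme2 lie below 0.4.

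A divergent neighbour was a protein-coding gene on the other strand whose representative TSS lay head to head within 1 kb. It was found for 7 of 48 genes (14.6%) beside 6.98% of the others. Among the other genes the share was 12.3% with a CpG-rich promoter, as 87.5% of members have, and 1.78% without. The 7 pairs were Psmc2 with Dnajc2, Psmc5 with Ftsj3, Psma2 with Mrpl32, Psma7 with Ss18l1, Psmd10 with Atg4a, Psmg2 with Cep76 and Psme2 with Rnf31. Of the 7, 2 are in the alpha ring and 2 among the ATPases. All 7 had a peak, with Psmc2 lowest at 7.607 and Psma2 highest at 14.01. The strongest peak lay within 1 kb of the TSS of another protein-coding gene in 12 of 45 members (26.7%) beside 22.2% of other genes, and for these 12 the fragments cannot be told apart by gene.

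Motif letters were counted on both strands from 250 bases before to 50 after the representative TSS, a window of 300 bases. The ARE letters were in 7 of 48 proteasome promoters (14.6%) beside 12.7% of all protein-coding promoters. Within 150 bases of the summit, which only genes with a peak have, the count was 13 of 45 members (28.9%) beside 16.1%. Both the window and the genes compared thus differed from those at the TSS. The matches in Psmb5 and Psmb6 began at −20 and −38, with the TSS at 0. That of Psmd9, at −31, overlapped a GGGCGG match on the other strand. The ISRE was in 6 promoters (12.5% beside 3.62%), and these were Psma4, Psmb3, Psmd4, Psmd7, Psmd9 and Psmg4. Among genes with a peak, the ISRE was within 150 bases of the summit in 6 of 45 members (13.3% beside 2.32%). Of the interferon-inducible genes Psmb8, Psmb9, Psmb10, Psme1 and Psme2, none held an ISRE match in the window at the TSS, and Psme1 held one within 150 bases of its summit.

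The ETS letters CCGGAAGT were in 8 promoters (16.7% beside 5%), namely Psmc1, Psmc2, Psmd6, Psmd12, Psme3, Psme4, Psmg3 and Psma8. Of these, 7 had a peak and Psma8 had none. The TF NRF1, which binds GC-rich palindromes at many housekeeping genes, had matches in 7 promoters (14.6% beside 6.1%). The GGGCGG letters bound by SP factors were in 30 (62.5% beside 45.3%), the CCAAT letters in 17 (35.4% beside 38.6%), the GAS in 5 (10.4% beside 8.29%) and TATAAA in 5 (10.4% beside 12.5%). The CRE was in 2, Psmb2 and Psmb8 (4.17% beside 2.51%), and in Psmb2 it overlapped a CCAAT match. Psmb8, without a peak, held CRE letters at −129, GAS letters at −64 and a GGGCGG match at −241 from its TSS. In the same window Psmb9 held GGGCGG alone and Psmb10 none of the motifs. Within 150 bases of their summits, Psmb9 held CCAAT and GGGCGG, and Psmb10 held the ARE and GGGCGG. Among genes with a peak, GGGCGG was within 150 bases of the summit in 71.1% of members beside 66.6% of all. The NRF1 letters were there in 15.6% beside 10.2%, the ETS letters in 24.4% beside 9.09% and CCAAT in 28.9% beside 40%. The GAS was there in 6.67% beside 6.18% and the CRE in 2.22% beside 3.6%. These counts describe letters and not binding.

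**Figure D5:**
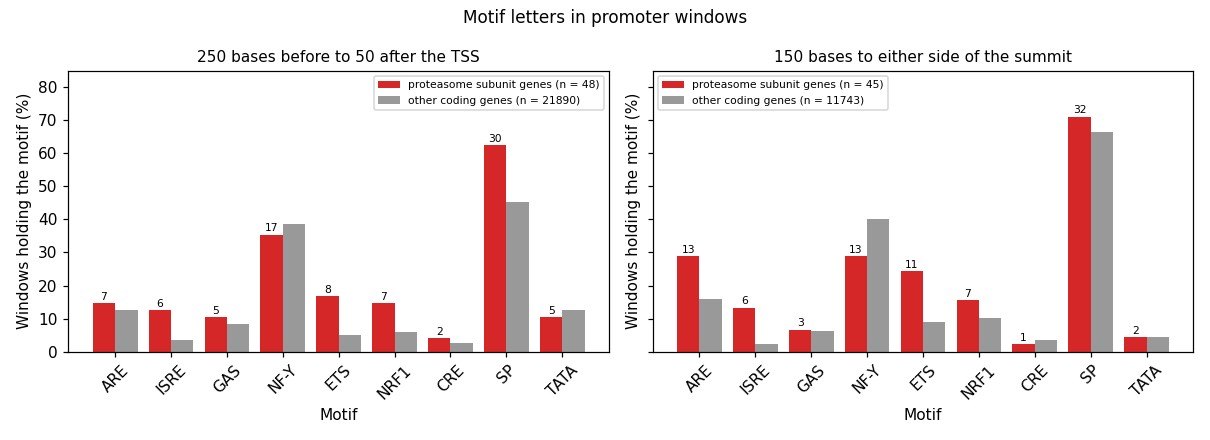
Share (%) of promoter windows that hold each motif, from 250 bases before to 50 after the TSS (left, all genes) and within 150 bases of the strongest summit (right, genes with a peak only), in proteasome genes (red, with counts above the bars) and other coding genes (grey). For the ISRE the red bars stand at 12.5% and 13.3%, and for the ARE at 14.6% and 28.9%.

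Partners of the proteasome outside these gene families had TSS peaks in 22 of 22 cases, beside 53.7% of all protein-coding genes. Fold enrichments ran from 3.803 at Nploc4, a cofactor of the unfoldase Vcp, to 15.2 at Ube3c, a ubiquitin ligase of the proteasome. Adrm1, a ubiquitin receptor, had 13.43, Uchl5, the deubiquitinase it binds, 13.85, and the core maturation factor Pomp 10.91. Nfe2l1 had 11.66. Of 6 genes of antigen processing and interferon signalling, 5 had a peak, again beside 53.7% of all protein-coding genes. For Tap1 this was the peak shared with Psmb9, and for Tap2 the small peak of 4.751 described above. B2m, the light chain of MHC class I, had 15.12, Irf1 9.309 and Tapbp 9.105. Nlrc5, the transactivator of MHC class I genes, had none within 1 kb, and its nearest peak was 2704 bp away. The labelled cell type was checked with 10 fibroblast genes, which all had a TSS peak, and 14 genes of other cell types, of which 4 did. Of all protein-coding genes 53.7% had one. The fibroblast genes ran from 3.414 at Thy1, under 12 fragments and 862 bp from its nearest TSS, and 3.646 at Prrx1 to 10.52 at Fn1. Of the 4 genes of other cell types, Krt8 had 3.251 and Spi1 3.217. The other 2, the endothelial genes Cdh5 and Pecam1, reached 12.82 and 8.398, and their part in the results above was not tested.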

How the data were processed

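ATAC-seq peaks of 1 parental NIH-3T3 library were analysed. According to the study's methods and the submitters' processing notes, the authors aligned reads to mm10 with STAR 2.5.3a, used Picard to drop duplicates, and ran MACS2 2.1.1.20160309 on whole fragments of this library alone. Removal of blacklisted and input peaks is described for ChIP-seq, and the study refers to that description for the peaks of this library. Whether such peaks were removed from this list was not tested. The authors deposited for each peak a fold enrichment (ratio), p-values and q-values as −log10, and a score derived from the q-value. The score was not used.

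Fragments at each summit were solved from the deposited ratio and −log10 p. They were within 0.02 of a whole number for 63454 of 63456 peaks, with a median of 29, and the method was tested on simulated data. The number of reads of the library is unknown. GENCODE M21 and the GRCm38 genome, of the same build, gave genes, TSSs and sequence. Where transcripts differed, the representative TSS was that of the best-ranked APPRIS principal transcript. Ties went to transcripts tagged basic and then to the most upstream start. Intervals are Poisson or Wilson 95% intervals. Scripts ran in Python 3.11.15 with pysam 0.24.0, SciPy 1.17.1, NumPy 2.4.6, pandas 2.3.3 and matplotlib 3.10.9.

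All members were named, in full those that replace each other, those without a peak or with several, and the 5 highest and 5 lowest. Members, lists and motifs were chosen with earlier results of these data known. Of 23 partner genes listed, 22 matched the annotation by symbol, and 1 gene of the antigen processing list is not reported here. Alternatives were other distances, thresholds, TSS sets, height measures and windows.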

Additional observations from a re-analysis of the deposited data

How the results depend on the processing

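Of 77 recomputed values, 63 stayed within their limits and 14 moved. For shares of genes the limits were the Wilson intervals, which are wide in small groups. They ran from 20.8 to 93.9% for the 3 immunoproteasome genes and from 0 to 65.8% for the 2 thymic and testis genes. A fall from 66.7 to 33.3% in the former and a rise from 0 to 50% in the latter thus counted as unmoved. For these groups the tally cannot show that the shares were stable. The share of proteasome genes with a TSS peak was 93.8% for overlap with the TSS, 500 bp, a q of 0.01 or 1e-05 and a fold enrichment of at least 5. These thresholds of q and fold enrichment could drop no member. The lowest of the strongest peaks, at Psmb6, had 6.583 and a −log10 q of 16.54. The share was 95.8% at 2 or 5 kb, where Psmb11 gained a peak. With 1 representative TSS per gene it was 89.6%, since Psmb10 and Psmf1 lost theirs, which left 33.3% of the immunoproteasome genes and 97.7% of the constitutive genes. The share of other protein-coding genes, 53.6%, moved to 48.6% for overlap with the TSS, 51.9% at 500 bp, 56.4% at 2 kb, 62.7% at 5 kb, 51.9% at a q of 1e-05, 48.7% at a fold enrichment of at least 5 and 49.4% with 1 TSS per gene. The ratio of the median heights of proteasome over other genes, 1.05, turned to 0.966 by −log10 q and 0.937 by fragments at the summit, and was 1.01 beside CpG-rich genes alone. From 500 bases before to 100 after the TSS, the ARE was in 35.4% of members beside 21.6% of all promoters, the GAS in 22.9% beside 16.6% and CCAAT in 56.2% beside 57.6%. At the summits, among genes with a peak, TATAAA was in 4.44% beside 4.53%. With neighbours of any gene type 8 members had a divergent neighbour, and within 300 or 500 bp 6. The causes were not tested. No paired analysis was possible because the values come from a single library, which also gives no replicate error. Depth limits the list to summits of 10 fragments or more.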

Other observations

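Genes with related symbols outside the families by rule showed both states. Psmc3ip, a partner of Psmc3 known from meiotic recombination, had a TSS peak with a fold enrichment of 6.588 under 43 fragments over 827 bp. Psme2b, an intronless relative of Psme2, had none, and its nearest peak was 31427 bp away. The annotated pseudogenes Psmb5-ps, Psmb6-ps, Psmb6-ps2 and Psmb7-ps2 had no peak within 1 kb, with the nearest at 2711, 2671, 516241 and 8183 bp. The parent genes Psmb5, Psmb6 and Psmb7 all had one.

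Inside the gene bodies, more than 1 kb from their own TSSs, 9 of 48 proteasome genes (18.8%) held 19 further peaks, beside 34.3% of other protein-coding genes. The median gene length was 12062 bp beside 17442 bp. Psme4 held 5 such peaks over 108636 bp, Psma6 4 over 34233 bp, Psmd9 3 over 80719 bp and Psmb7 2 over 56052 bp. Psma2, Psmc2, Psmc3, Psmd2 and Psmd11 held 1 each.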
